A study of Mus musculus with 2 samples.

Results

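MHC class I molecules show peptides made inside a cell to CD8 T cells and to natural killer (NK) cells, and 10 genes of this pathway were followed across the cell types of the mouse omentum. The genes were taken by symbol from the 19960 genes listed, whatever their values. They encode the light chain (B2m), the classical heavy chains (H2-K1 and H2-D1), nonclassical heavy chains (H2-T23 and H2-Q7), the peptide transporter (Tap1 and Tap2), tapasin (Tapbp) and inducible subunits of the proteasome (Psmb8 and Psmb9). Tapbp was listed by its Ensembl identifier (ENSMUSG00000024308) alone and was named through the GENCODE annotation. H2-K1 (ENSMUSG00000061232) lies on chromosome 17 at 33996017 to 34000347 (GRCm38, minus strand), and the other 8 genes except B2m lie on chromosome 17 as well. B2m (ENSMUSG00000060802) lies on chromosome 2 at 122147686 to 122153083.

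The omentum is a fold of abdominal fat with lymphoid clusters called milky spots. Single-cell RNA sequencing in droplets was run on 2 libraries of omental cells, 1 of wild type (WT) and 1 of Postn-DTR mice on the C57BL/6 background, and both were collected 5 days after diphtheria toxin (DT). Postn-DTR mice are heterozygotes that carry the receptor for the toxin in the Postn gene, so that Postn-expressing cells, among them some fibroblastic reticular cells of milky spots, are killed by DT. Both groups received DT, each library pools several mice of its group, and no age of the mice is stated in the sources used here. With 1 library per group there was no test between WT and Postn-DTR mice, and every difference below is a difference between those libraries. A level is the mean over the cells of a class of unique molecular identifiers (UMIs) per 10000 UMIs of the cell. A gene was called higher or lower in a class when the log2 ratio of its levels, Postn-DTR over WT, was at least 0.5 or at most -0.5. Intervals are exact 95% intervals and cover counting error only.

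The kept cells numbered 8654 in WT mice and 5727 in Postn-DTR mice, with a median of 5635 and 8472 UMIs per cell, and 65 barcode sequences occurred in both libraries. Cells were placed in 14 classes with at least 30 cells in each library by detection of lineage markers, and 1055 WT and 742 Postn-DTR cells stayed unassigned. Among the 10 genes with the highest fold over the other cells, each class had at least 1 of its own markers and 0 of another lineage. Fcrl5, a marker used for B1 B-like cells, was also among the 10 of other B-like cells. Cells were placed by these same markers, so this is not an independent check of the classes. Plasma-like cells numbered 480 in WT and 2007 in Postn-DTR mice, neutrophil-like cells 281 and 851, CD4 T-like cells 884 and 96, and B2 B-like cells 2033 and 634. In stromal-like cells, the targeted gene Postn had 46 UMIs in 9 of 37 WT cells, 22 of them in 1 cell, and 10 UMIs in 5 of 11 Postn-DTR cells. These values cannot check the genotype, because heterozygotes keep an untargeted Postn allele and the cells are few. A lower number of stromal cells cannot be told apart from weaker recovery of them.

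A class I molecule is a heavy chain folded with the light chain around a short peptide. Proteasomes cut proteins into peptides, the transporter carries the peptides into the endoplasmic reticulum, and tapasin helps to load them. Interferons raise much of the pathway through regulators such as IRF1 and NLRC5, and they also swap standard proteasome subunits for inducible ones, which gives the immunoproteasome.

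Stretches of the promoters are shown because H2-K1, H2-D1 and H2-Q7 carry the same 4 short motifs at nearly the same spacing. Those of B2m and H2-T23 show which of the exact letters searched were matched there. The RefSeq table (GRCm38.p6) held windows for 9 of the 10 genes. The 250 bases before the start were searched on both strands for GAANNGAAA or GAAANNGAA (the interferon response type), GGGATTCCC (the kappa B type), TGACG (the core of the X2 type) and CCAAT. These letters were chosen with the class I promoters in mind. In the stretches below, written 5′ to 3′ toward the start of the gene, capitals mark the matches:
H2-K1, chr17:34000353-34000463 (minus strand): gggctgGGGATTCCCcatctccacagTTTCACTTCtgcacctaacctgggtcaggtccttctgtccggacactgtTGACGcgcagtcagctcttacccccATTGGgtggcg
H2-D1, chr17:35262918-35263028 (plus strand): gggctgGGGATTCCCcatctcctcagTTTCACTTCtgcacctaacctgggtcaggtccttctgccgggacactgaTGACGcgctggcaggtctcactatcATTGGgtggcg
H2-Q7, chr17:35439017-35439125 (plus strand): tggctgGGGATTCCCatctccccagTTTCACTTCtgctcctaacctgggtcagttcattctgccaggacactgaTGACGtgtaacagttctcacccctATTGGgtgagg
B2m, chr2:122147542-122147644 (plus strand): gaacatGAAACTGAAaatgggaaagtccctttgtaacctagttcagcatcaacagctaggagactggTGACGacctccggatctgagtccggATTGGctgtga
H2-T23, chr17:36032743-36032830 (minus strand): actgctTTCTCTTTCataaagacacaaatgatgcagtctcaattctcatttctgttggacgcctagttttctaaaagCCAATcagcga

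H2-K1, H2-D1 and H2-Q7 held all 4 motifs, and the only other window of the 32851 in the table to do so was a second one for H2-K1. From the first base of the kappa B match, the interferon match began 20 bases downstream in H2-K1 and H2-D1 and 19 bases downstream in H2-Q7. The TGACG match followed 49 bases further on in all 3 genes, and the reversed CCAAT box came 25 bases later in H2-K1 and H2-D1 and 24 bases later in H2-Q7. The printed stretches of H2-K1 and H2-D1 were identical at 90.1% of aligned positions, and B2m matched H2-K1 at 52.7%. B2m had no match to GGGATTCCC, but its TGACG and reversed CCAAT matches were also 25 bases apart. Only those letters were searched for the kappa B type, so a kappa B site in other letters would not be found. H2-T23 had the interferon and CCAAT matches, and within these windows Tapbp had a CCAAT match only, whereas Psmb8 had none of the 4. Tap1 and Psmb9 start 226 bases apart on opposite strands, and both windows held TGACG and CCAAT. Of all windows, 12.5% held an interferon-type match, 0.301% the kappa B match, 17.8% TGACG and 33.8% CCAAT. A match is a run of letters and was not tied to binding in these cells.

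The heavy chain genes are near copies of each other, so part of their reads could be placed in more than 1 gene. Of all 50-base stretches of the annotated transcripts, 9.63% for H2-K1, 12.8% for H2-D1, 13.6% for H2-T23 and 26.4% for H2-Q7 also occur in another gene. B2m and Psmb9 shared none. Levels of H2-Q7 are the least certain of the set for that reason. A UMI counts 1 end of a molecule, so levels do not scale with transcript length.

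Class I transcripts were found in every class, but at unequal levels. H2-K1 was highest in Treg-like cells, with 45.2 UMIs per 10000 for WT and 54.2 for Postn-DTR mice. It was lowest in neutrophil-like cells, at 3.35 and 4.96, a 13.5-fold range over the 14 classes in WT mice. The order of the classes for H2-K1 was alike in the libraries, with a Spearman rho of 0.92 over 14 classes, given as a description. In WT mice 5 of the 13 neighbouring pairs in that order had overlapping counting intervals. T-like, NK-like and ILC2-like cells lay between 29.2 and 45.2, B-like cells between 15.6 and 17.5, plasma-like cells at 14.1, monocyte-like cells at 14.3 and macrophage-like cells at 14.7.

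H2-D1 followed another order. NK-like cells had the highest level in WT mice, at 40.3 UMIs per 10000, and plasma-like cells the lowest, at 11.0, a 3.65-fold range. Monocyte-like cells had 28.1 in WT mice, above the B-like classes, which lay between 19.3 and 20.3. H2-Q7, the Qa-2 heavy chain, had the widest range. It was highest in Treg-like cells, at 9.85 in WT and 10.0 in Postn-DTR mice, and lowest in neutrophil-like cells, at 0.183 and 0.169, a 54.0-fold range in WT mice. H2-T23, the Qa-1 heavy chain that NK cell receptors of the CD94/NKG2A type read, varied 2.66-fold in WT mice, and its order was the least alike in the libraries, with a rho of 0.17.

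B2m, whose product pairs with every class I heavy chain, had a flatter spread than H2-K1. Macrophage-like cells were highest in WT mice, at 24.5 UMIs per 10000, and plasma-like cells in Postn-DTR mice, at 23.9. Neutrophil-like cells were lowest in both, at 6.40 and 6.25. Summed UMIs of H2-K1 and H2-D1 per B2m UMI were highest in NK-like cells in WT mice, at 4.02 (interval 3.85 to 4.20), and in Treg-like cells in Postn-DTR mice, at 4.59 (4.12 to 5.13). Plasma-like cells were lowest in both libraries, at 1.30 and 1.45.

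**Figure D1:**
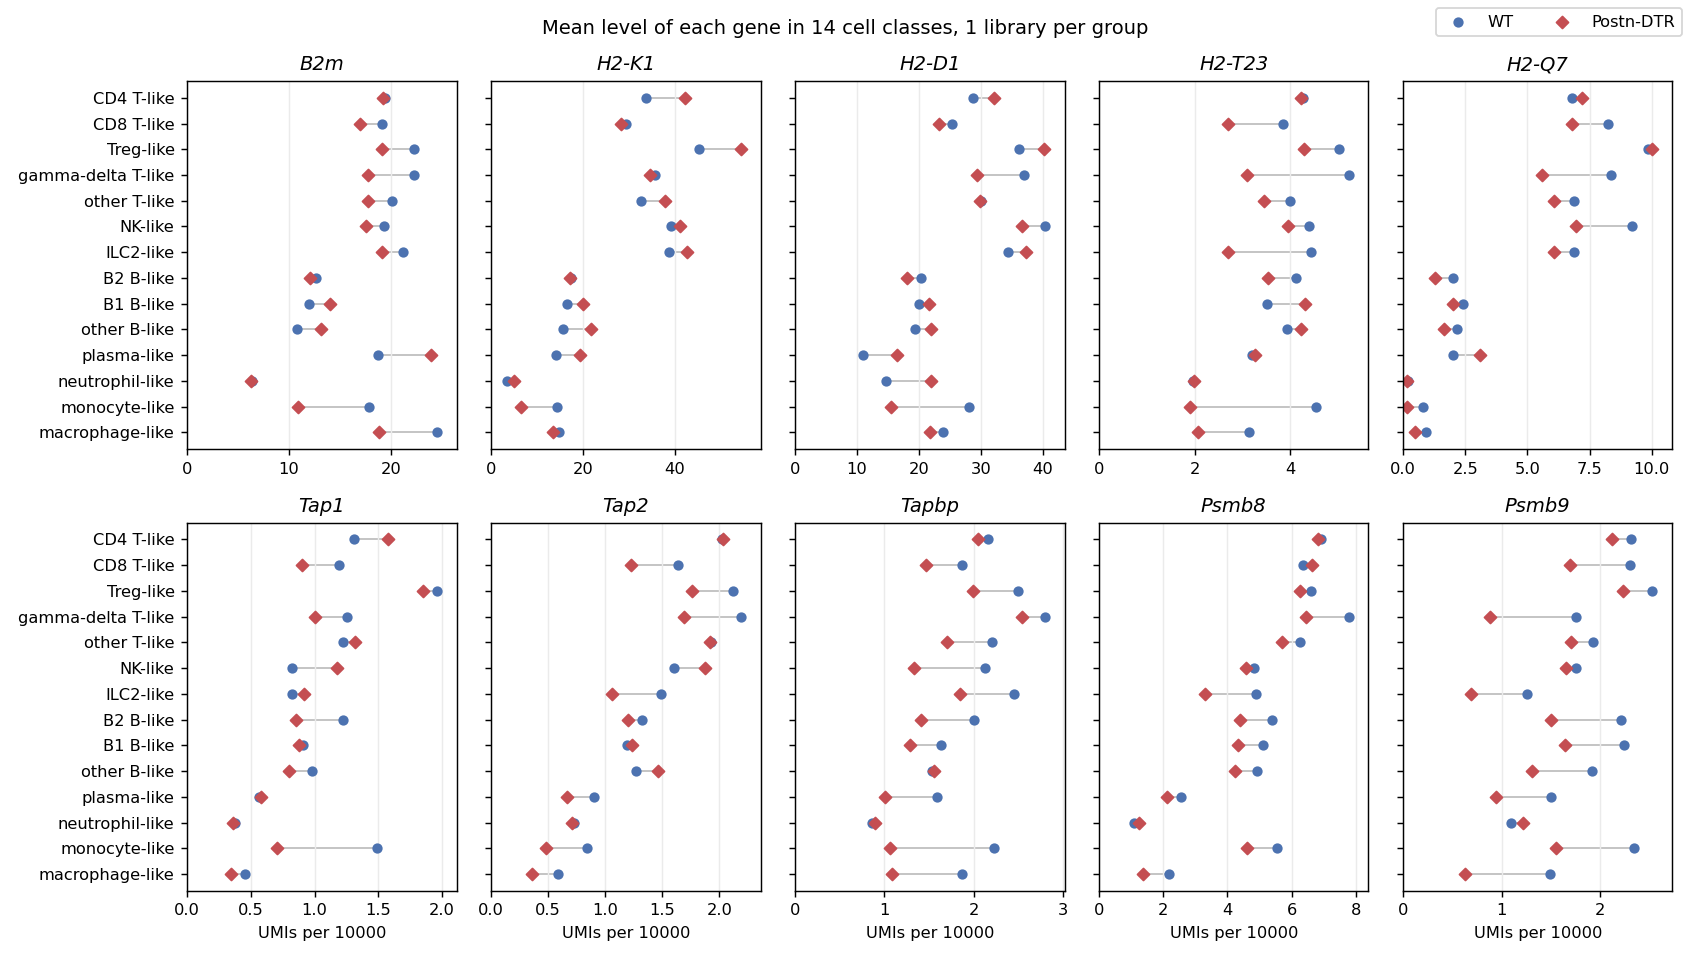
Mean level of each of the 10 genes (x axis, UMIs per 10000 UMIs of the cell) in 14 cell classes (y axis), with a circle for WT, a diamond for Postn-DTR and a line joining the pair. Each point is 1 library. H2-K1 and H2-Q7 were highest in Treg-like cells, and neutrophil-like cells had the lowest H2-K1 in both libraries.

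The balance of the classical heavy chains differed between the neutrophil-like, monocyte-like and macrophage-like cells and the 11 lymphoid classes. H2-K1 made up 23.9% (22.8 to 25.1) of the H2-K1 and H2-D1 UMIs of neutrophil-like cells in WT mice and 20.8% (20.1 to 21.6) in Postn-DTR mice. Monocyte-like cells had 34.7% and 29.9%, and macrophage-like cells 37.4% and 35.8%. Plasma-like cells had 55.7% and 54.2%, and CD4 T-like cells 53.7% and 56.5%. The order of the classes had a rho of 0.93 between the libraries. The 3 former classes lay below all 11 lymphoid classes in both. This did not extend to every myeloid class, since among those with under 30 cells in at least 1 library the WT shares ran from 36.0% in cDC1-like cells to 49.4% in mature DC-like cells, and other B-like cells, the lowest lymphoid class, had 44.8%.

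**Figure D2:**
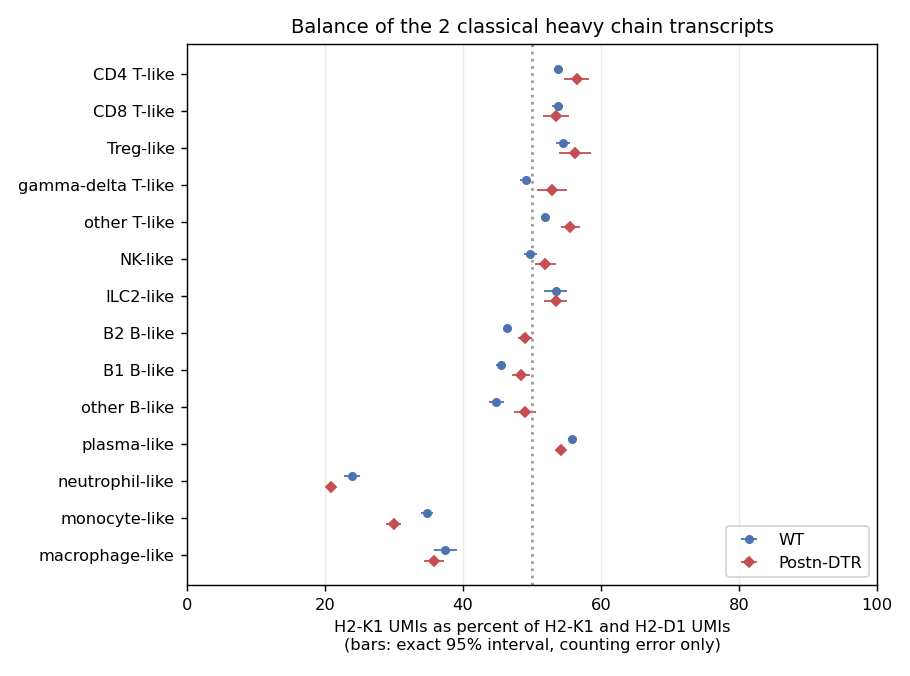
H2-K1 UMIs as percent of H2-K1 and H2-D1 UMIs (x axis) in 14 classes (y axis), circles for WT and diamonds for Postn-DTR, with exact 95% intervals that cover counting error only. The neutrophil-like, monocyte-like and macrophage-like cells sit at 20.8% to 37.4%, below the lymphoid classes.

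Dendritic cells, which present antigen to T cells, were too few in Postn-DTR mice for a comparison, so the WT levels are given alone. The 19 mature DC-like cells had 50.1 UMIs per 10000 of H2-K1, 49.9 of H2-D1, 45.8 of B2m, 13 of H2-T23 and 10.6 of H2-Q7. Each of these was above the WT levels of the 14 classes compared. The 137 cDC1-like cells, of the subset known for cross-presentation, had only 11.8 of H2-K1 but 12.2 of Psmb8, 8.92 of Psmb9 and 3.46 of Tap1. Those Psmb9 and Tap1 levels were above the WT levels of the 14 classes compared, whose highest were 2.53 and 1.96, both in Treg-like cells. High Psmb8 and Psmb9 were not particular to cDC1-like cells. Mature DC-like cells had 12.4 of Psmb8 and 4.94 of Psmb9, and pDC-like cells had 3.79 of Psmb9. Tap1 was 1.79 and 1.43 in these 2 classes, and cDC2-like cells had 2.45 of Psmb9. The 53 pDC-like cells had 10.8 of H2-T23 and 8.98 of H2-Q7. The 37 stromal-like WT cells had 16.6 of H2-K1 and 2.83 of Psmb8.

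Among the 140 pairs of gene and class, 137 had at least 100 summed UMIs. Of these 29 were lower in Postn-DTR mice, 21.2% beside 12.7% of all gene and class pairs, and 5 were higher, 3.65% beside 11.8% of all pairs. The median log2 ratio was -0.15 for the 137 pairs and 0.00 for all pairs. The lower calls lay mostly in monocyte-like and macrophage-like cells, and the higher calls in neutrophil-like, plasma-like and NK-like cells. In CD4 T-like cells 0 of the 10 genes were called in either direction, beside 13.5% of all genes lower and 13.7% higher. In B1 B-like cells 0 of 10 were called, beside 11.8% lower and 9.8% higher.

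**Figure D3:**
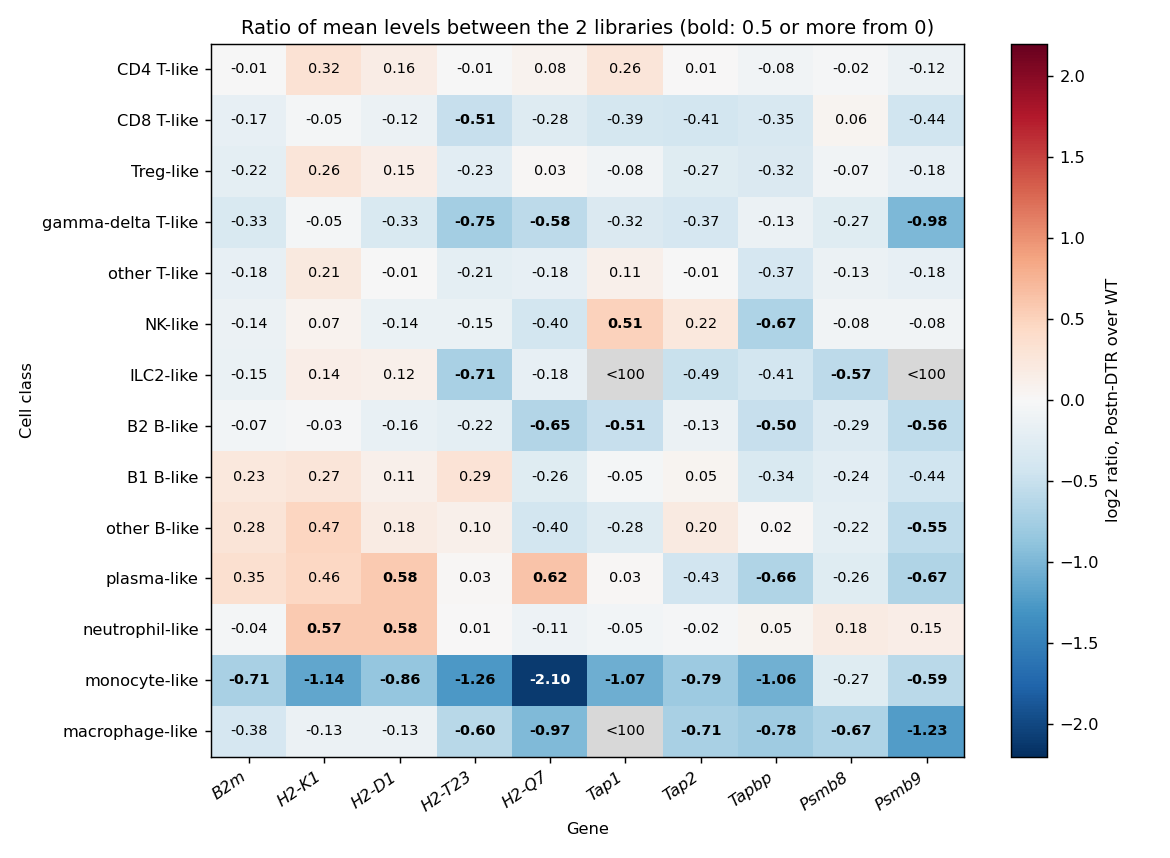
Log2 ratio of levels, Postn-DTR over WT (colour and printed value), for the 10 genes (x axis) in 14 classes (y axis). Values of 0.5 or more from 0 are bold, and grey cells had fewer than 100 summed UMIs. The monocyte-like row is below 0 throughout, from -2.10 to -0.27.

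Monocyte-like cells had the most calls, with 9 of 10 genes lower and 0 higher, beside 16.5% of all genes lower and 10.4% higher in this class. Their median log2 ratio was -0.96, and that of all genes was -0.03. H2-K1 was 14.3 UMIs per 10000 in 208 WT cells and 6.49 in 207 Postn-DTR cells, a log2 ratio of -1.14, or -1.08 (-1.16 to -1.01) on summed UMIs. H2-D1 was 28.1 and 15.5, a log2 ratio of -0.86, and B2m was 17.9 and 10.9, a log2 ratio of -0.71. H2-T23 was 4.55 and 1.90, a log2 ratio of -1.26. H2-Q7 was 0.796 and 0.178, a log2 ratio of -2.10, from 210 and 42 UMIs. The transporter gene Tap1 was 1.49 and 0.704, and Tapbp was 2.23 and 1.06, log2 ratios of -1.07 and -1.06. Psmb8 alone was not called, at 5.54 and 4.60.

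The make-up of the monocyte-like class differed between the libraries. Cells with a UMI of Mpo, Elane, Ctsg or Prtn3, granule protein genes of myeloid precursors, were 42.3% of the class in WT mice and 87.4% in Postn-DTR mice. The same share of CD4 T-like cells, which should lack these transcripts, was 4.19% and 9.38%. Median depth was 10566.5 and 12147 UMIs in the monocyte-like cells and 4689.5 and 3875 in the CD4 T-like cells. The summed level of these genes in the monocyte-like class was 19.2 UMIs per 10000 in WT mice and 38.9 in Postn-DTR mice. Cycling cells made up 33.2% and 52.7%.

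Each subset of the monocyte-like cells kept a negative median. In cells with a precursor UMI, 88 in WT and 181 in Postn-DTR mice, the median was -0.62, with H2-K1 at 10.1 and 6.02. There 7 of the 10 genes were lower and 0 higher, beside 16.2% of all genes lower and 6.37% higher. In cells with none, 120 and 26, it was -0.95, with H2-K1 at 17.5 and 9.74. There 8 were lower and 0 higher, beside 26.3% of all genes lower and 10.1% higher. In cycling cells it was -0.70, and in non-cycling cells it was -1.06. Within each library, cells with a precursor UMI had less H2-K1 than cells with none.

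Macrophage-like cells numbered 114 in WT and 232 in Postn-DTR mice. Of the 9 genes with enough UMIs, 6 were lower and 0 higher, beside 19.4% of all genes lower and 13% higher. The median was -0.67 and that of all genes was -0.10. The classical heavy chains were close, with H2-K1 at 14.7 and 13.5 UMIs per 10000 and H2-D1 at 23.9 and 21.8. Psmb9 was 1.49 and 0.631, a log2 ratio of -1.23, Tapbp was 1.87 and 1.09, a log2 ratio of -0.78, and Psmb8 was 2.19 and 1.37, a log2 ratio of -0.67. On summed UMIs Tapbp was -0.35, and with stricter markers H2-T23, at -0.60, was -0.31. Tap1 had 42 and 38 UMIs and was not compared. Cells with a UMI of Prg4 or Alox15, genes of resident peritoneal macrophages, were 34.2% of the class in WT and 55.6% in Postn-DTR mice. The median was -0.28 over 6 genes in those cells and -0.82 over 7 genes in the others. The summed precursor gene level was 0.702 in WT and 7.98 in Postn-DTR macrophage-like cells, and its part in the result was not tested.

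Neutrophil-like cells went the other way for the classical heavy chains. H2-K1 was 3.35 UMIs per 10000 in WT mice and 4.96 in Postn-DTR mice, a log2 ratio of 0.57. H2-D1 was 14.7 and 22, a log2 ratio of 0.58. These were the 2 genes of 10 called higher, beside 18.2% of all genes, and 0 were called lower, beside 11.8%. B2m was level, at 6.40 and 6.25. Median depth was 9831 UMIs in WT and 3658 in Postn-DTR neutrophil-like cells, and on summed UMIs the H2-K1 log2 ratio was 0.28 (0.18 to 0.38).

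The heavy chains followed the maturity of the neutrophil-like cells. Cells with more mature than immature markers (Cxcr2, Il1b, Csf3r, Msrb1 and Clec4d against Camp, Ngp, Ltf, Cebpe and Chil3) were 23.1% of the class in WT and 55.2% in Postn-DTR mice. In mature cells H2-D1 was 30.3 and 30.2 UMIs per 10000, and in immature cells it was 9.11 and 10.1. The mature level was thus 3.33 times the immature one in WT and 2.98 times in Postn-DTR mice. H2-K1 was 5.18 and 6.0 in mature cells and 3.05 and 3.49 in immature cells. Within mature cells 0 of 8 genes were called higher and 1, H2-T23 at -0.51, was called lower, beside 21.9% of all genes higher and 11.1% lower. Their median was -0.19, and that of all genes was 0.11. Within immature cells 0 of 9 were called, beside 13.1% of all genes higher and 4.15% lower, and the median was 0.13 for both these genes and all genes. The H2-D1 call of the whole class was not made within either subset, where the log2 ratios were -0.01 and 0.15.

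In plasma-like cells the heavy chain genes H2-D1 and H2-Q7 were called higher in Postn-DTR mice, and Tapbp and Psmb9 were called lower. H2-D1 was 11.0 and 16.5 UMIs per 10000, a log2 ratio of 0.58, or 0.56 (0.54 to 0.59) on summed UMIs, and H2-Q7 was 2.01 and 3.1, a log2 ratio of 0.62. H2-K1 was 14.1 and 19.4 and B2m was 18.7 and 23.9, log2 ratios of 0.46 and 0.35 that were not called. H2-T23, at 3.20 and 3.26, and Tap1, at 0.567 and 0.581, had log2 ratios of 0.03 each, and Tap2 and Psmb8 had -0.43 and -0.26, which were not called either. Tapbp was 1.59 and 1.0, a log2 ratio of -0.66, and Psmb9 was 1.5 and 0.944, a log2 ratio of -0.67. These 2 lower calls of 10 stood beside 10.1% of all genes, and the 2 higher calls beside 17.9%. The median of all genes in this class was 0.12, and after centring on it neither H2-D1 nor H2-Q7 was called, whereas 3 genes were lower, beside 14.4% of all genes. Immunoglobulin genes took 56.0% of the UMIs of this class in WT and 51.9% in Postn-DTR mice.

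Cycling plasma-like cells were 10.6% of the class in WT and 17.2% in Postn-DTR mice. Within them H2-D1 was 17.9 and 20.7 UMIs per 10000, Psmb9 was 2.57 and 1.47 and Tapbp was 1.82 and 0.972. Within non-cycling cells H2-D1 was 10.2 and 15.6, Psmb9 was 1.38 and 0.835 and Tapbp was 1.56 and 1.01. The lower Psmb9 and Tapbp calls were thus seen in both subsets. The H2-D1 call was seen in non-cycling cells, with log2 ratios of 0.61 there and 0.21 in cycling cells, a difference that was not tested.

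**Figure D4:**
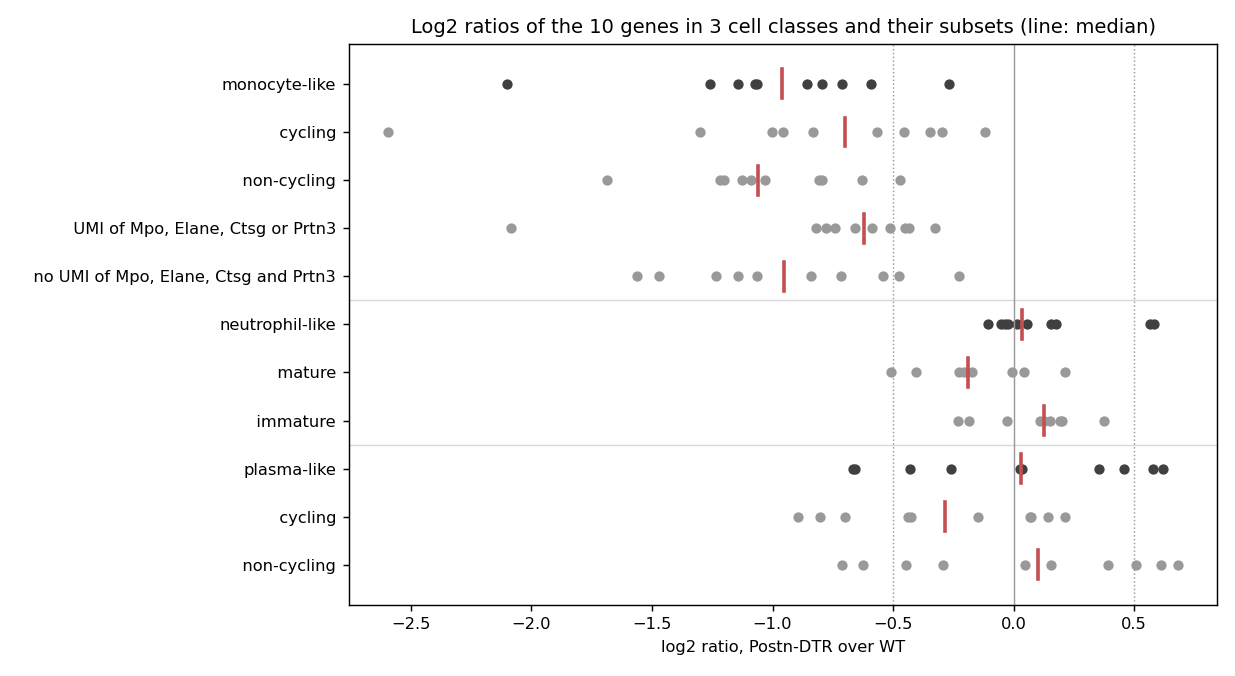
Log2 ratio, Postn-DTR over WT (x axis), of each of the genes with at least 100 summed UMIs (points) in monocyte-like, neutrophil-like and plasma-like cells and in subsets of them (y axis), with the median as a line. Medians of the monocyte-like subsets lie between -1.06 and -0.62, and the lowest point of the neutrophil-like subsets is H2-T23 in mature cells, at -0.51.

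B2 B-like cells had 4 of 10 genes lower and 0 higher, beside 8.79% of all genes lower and 6.79% higher. H2-Q7 was 2.0 UMIs per 10000 in WT mice and 1.27 in Postn-DTR mice, a log2 ratio of -0.65, and Psmb9 was 2.22 and 1.5, a log2 ratio of -0.56. Tap1 was 1.22 and 0.852, and Tapbp was 2.01 and 1.41. H2-K1, at 17.5 and 17.2, and B2m, at 12.6 and 12.1, were close. The lower calls of Tap1 and Tapbp, at -0.51 and -0.50, lie at the threshold, and on summed UMIs they were -0.34 and -0.45. In cells with a Fcer2a or Cr2 UMI and no B1 marker, 1241 and 239, the median was -0.33, against -0.26 in the whole class.

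In the smaller lymphoid classes few genes were called. Lower calls were 3 of 10 in gamma-delta T-like cells and 2 of 8 in ILC2-like cells, beside 19.1% and 15.0% of all genes. They were 1 of 10 each in NK-like, CD8 T-like and other B-like cells, beside 11.5%, 12.7% and 12.6%, which is near the background. The 1 higher call, in NK-like cells, stood beside 4.64% of all genes. In gamma-delta T-like cells Psmb9 was 1.76 and 0.884 UMIs per 10000, a log2 ratio of -0.98 from 388 and 33 UMIs. H2-T23 was 5.23 and 3.1 in the same cells, a log2 ratio of -0.75, and was also lower in ILC2-like cells, at 4.44 and 2.71. In NK-like cells Tap1 was 0.819 and 1.17, a log2 ratio of 0.51, or 0.53 (0.09 to 0.95) on summed UMIs, and Tapbp was 2.13 and 1.33, a log2 ratio of -0.67. The Tap1 call was lost with stricter markers, at 0.39. H2-T23 in CD8 T-like cells, at 3.84 and 2.69, and Psmb9 in other B-like cells, at 1.92 and 1.31, lay at the threshold, with log2 ratios of -0.51 and -0.55. H2-Q7 in gamma-delta T-like cells was 8.34 and 5.57, a log2 ratio of -0.58 that was -0.40 on summed UMIs. Psmb8 in ILC2-like cells was 4.88 and 3.29, a log2 ratio of -0.57 that was -0.23 with stricter markers.

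Read gene by gene, tapasin and the immunoproteasome subunits leaned one way over most classes. Psmb9 was below 0 in 12 of 13 classes, Psmb8 in 12 of 14 and Tapbp in 12 of 14, with medians of -0.44, -0.23 and -0.36. Of 2242 genes measured in at least 12 classes, 12.7% were below 0 in all but at most 2 of them, and 10.8% were above 0. On summed UMIs Psmb8 and Psmb9 were below 0 in 11 classes each and Tapbp in 14. H2-K1 was below 0 in 5 of 14 classes and H2-D1 in 7 of 14. B2m and H2-Q7 were below 0 in 11 of 14 each, H2-T23 and Tap2 in 10 of 14 each, and Tap1 in 8 of 12. On summed UMIs H2-Q7 was below 0 in 12 of 14 classes and B2m in 11. The lean was thus not particular to tapasin and the immunoproteasome subunits.

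Each inducible subunit replaces a standard one, so their UMIs were set against each other: Psmb8 against Psmb5, Psmb9 against Psmb6 and Psmb10 against Psmb7. Psmb9 made up 55.3% (53.7 to 56.8) of its pair in WT plasma-like cells and 36.4% (35.6 to 37.2) in Postn-DTR plasma-like cells. In monocyte-like cells it was 51.5% and 34.8%, in macrophage-like cells 52.2% and 37.3%, and in B2 B-like cells 57.5% and 48.1%. The Psmb9 share was lower in Postn-DTR mice in 13 of 14 classes, and in 6 the intervals did not overlap. A like count over all gene pairs was not made, so these counts have no background. For the H2-K1 share of H2-K1 and H2-D1, intervals were apart in 3 classes with a lower share and 6 with a higher one. CD4 T-like cells, at 57.9% and 54.7%, B1 B-like cells, at 58.6% and 53.6%, and neutrophil-like cells, at 51.5% and 50.04%, had overlapping intervals. The maturity of the neutrophil-like cells differed between the libraries. Within mature ones the Psmb9 share was 78.9% in WT and 70.1% in Postn-DTR mice, and within immature ones 47.6% and 44.6%. Intervals overlapped in both subsets.

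The Psmb8 share was lower in 10 of 14 classes, with intervals apart in 4, and higher with intervals apart in 1, the neutrophil-like cells at 43.0% and 49.3%. Within mature neutrophil-like cells it was 61.5% in WT and 58.2% in Postn-DTR mice, with overlapping intervals. Within immature ones it was 40.1% and 46.8%, with intervals apart. The Psmb10 share was lower in 11, with intervals apart in 2, the plasma-like cells at 65.2% and 51.5% and the monocyte-like cells at 69.3% and 58.8%. The counts for Psmb8 and Psmb10 have no background over all gene pairs either. Neutrophil-like cells had the lowest Psmb10 share in both libraries, at 30.1% and 24.1%. In plasma-like cells, where Psmb9 was lower, the standard subunit Psmb5 was called higher, at 1.19 and 1.71 UMIs per 10000. Psmb6, at 1.16 and 1.64, was just short of the call. The Psmb5 log2 ratio, 0.52, lay at the threshold. In this class 17.9% of all genes were called higher, and the median of all genes was 0.12. Cycling cells were more frequent in the Postn-DTR plasma-like and monocyte-like classes, and without cycling cells the Psmb9 share of Postn-DTR plasma-like cells was 37.4%.

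**Figure D5:**
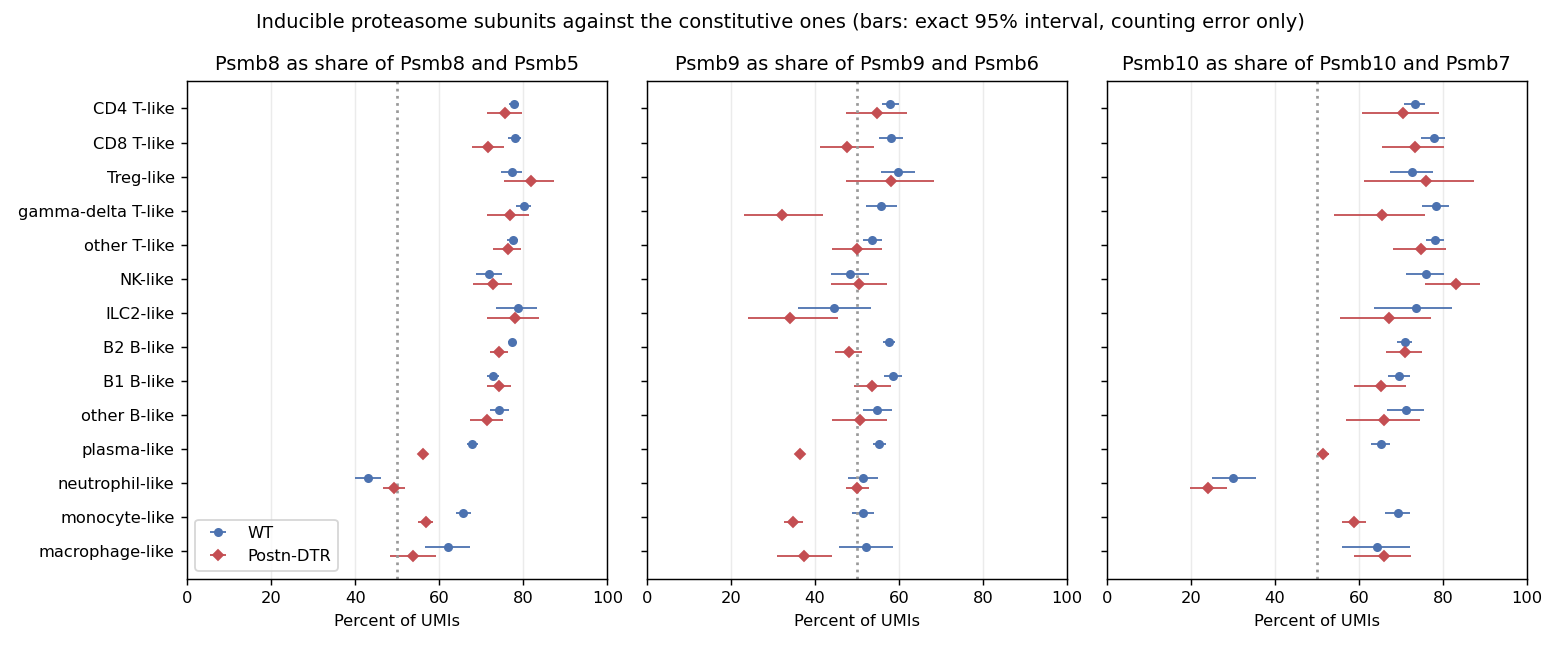
Inducible subunit UMIs as percent of the inducible and standard subunit of each pair (x axis) in 14 classes (y axis), circles for WT and diamonds for Postn-DTR, with exact 95% intervals that cover counting error only. The Psmb9 share of plasma-like cells is 55.3% in WT and 36.4% in Postn-DTR mice.

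Other genes of the pathway were taken from a list of 34, of which 33 were measured. H2-T10 was not analysed here. Helpers of peptide loading and trimming (Canx, Calr, Pdia3, Erap1 and Tapbpl) had 21 of 62 pairs lower and 0 higher, 33.9% lower beside 12.7% of all pairs. Calr, the chaperone calreticulin, was lower in 7 of 14 classes and Canx, calnexin, in 6 of 14. In B2 B-like cells Calr was 2.80 and 1.49 UMIs per 10000. Pdia3, the ERp57 disulfide isomerase, was below 0 in 12 of 14 classes, with 3.01 and 1.88 in B2 B-like cells, but it was 4.52 and 5.24 in monocyte-like cells.

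The third inducible subunit, Psmb10, and the proteasome activator genes Psme1 and Psme2 had 13 of 42 pairs lower, which is 31.0%, and 0 higher. Psmb10 was below 0 in all 14 classes, from -0.76 to -0.12, and was called lower in 3. Psme2 was lower in 6 classes, and in Treg-like cells it was 4.85 and 2.27 UMIs per 10000, from 647 and 58 UMIs. The standard subunits Psmb5, Psmb6 and Psmb7 had 5 of 40 pairs lower and 2 higher, 12.5% and 5% beside the same 12.7% and 11.8%.

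Other class I and class I-like heavy chains had 8 of 56 pairs lower and 7 higher, 14.3% and 12.5% beside 12.7% and 11.8% of all pairs, which is near the background. H2-Q4 was lower in 1 of 13 classes, the monocyte-like cells at 0.751 and 0.375 UMIs per 10000, and higher in 5, among them neutrophil-like cells at 0.112 and 0.391 and plasma-like cells at 0.676 and 1.13. H2-Q6 and H2-T22 had 2 and 1 lower calls, with monocyte-like cells among them for both genes. H2-M3, which presents formylated peptides, was 0.665 and 0.128 in gamma-delta T-like cells, from 147 and 6 UMIs.

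Among the regulators, Irf1 had no common direction, with 0.381 and 1.24 UMIs per 10000 in neutrophil-like cells and 1.82 and 0.870 in gamma-delta T-like cells. Irf2 was lower in 3 of 13 classes and higher in 1. Nlrc5, the main activator of class I promoters, was scarce and was named after its values were seen. It was lower in 3 of 8 classes, the B2 B-like, gamma-delta T-like and monocyte-like cells, the last at 0.273 and 0.114. Such counts stand beside 12.7% of all gene and class pairs lower and 11.8% higher.

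Interferon signals and receptors had 13 of 82 pairs lower and 13 higher, 15.9% each way beside 12.7% and 11.8% of all pairs. Ifngr1, a chain of the interferon gamma receptor, was higher in 7 of 14 classes and lower in 2. In CD4 T-like cells it was 5.44 and 10.3 UMIs per 10000, and in Treg-like cells 11.8 and 22.5, but 6.39 and 3.91 in monocyte-like cells. Jak1 was lower in 1 class and higher in 1, and Ifnar2 was lower in 1. Ifng, which encodes interferon gamma, was 1.5 and 0.730 in NK-like cells and 0.436 and 1.11 in CD4 T-like cells. In gamma-delta T-like cells Ifng had 114 UMIs in 399 WT cells and 0 UMIs in 54 Postn-DTR cells, where 0 allows up to 3 UMIs.

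Genes outside these lists were ranked by how closely they tracked the mean standardized profile of the 10 genes over 28 points, the 14 classes in each library. Among 8037 genes with at least 1000 UMIs, the closest were Ociad1, with a Pearson r of 0.93, Shisa5, with 0.92, and Il2rg, the common cytokine receptor chain, with 0.92. Agk, Unc119b, Fkbp3, Aven, Wdr33, Ppil3 and Wrnip1 followed, down to 0.90. Of the 10 genes themselves, H2-K1, H2-Q7 and Tap1 followed the mean profile most closely, with r of 0.91, 0.90 and 0.90, and Psmb9 least, with 0.59. The profile is the mean of these same genes, so each r includes the gene's own part and cannot be set beside those of outside genes. The points share libraries and cell classes, so r is given as a description. Without the neutrophil-like and macrophage-like cells r was 0.84 for Ociad1 and 0.85 for Shisa5.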

How the data were processed

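Omental cells of 2 libraries were analysed from gene by cell matrices. Per cell, the authors deposited the natural log of 1 plus UMIs per 10000 UMIs. UMIs were recovered from the step of each cell, and 99.95% of WT and 99.89% of Postn-DTR values came out whole within 0.1. The submitters' processing notes name Cell Ranger 6.0.0 and mm10, and the labels a 5′ kit, whereas the study's methods name a 3′ kit and another Cell Ranger version. The filters in those methods were applied (200 to 7500 genes, at most 25% mitochondrial), which kept 80152113 and 81011255 UMIs. Cells joined the lineage with at least 3 of 8 markers detected and a lead of 2. No doublet caller was run, and cells with markers of more than 1 lineage were mostly left unassigned by the lead. Whether counting used strand is not given in the sources used here, and the annotated spans of Tap1 and Psmb9 overlap on opposite strands. Levels were averaged over cells in Python 3.11.15 (numpy 2.4.6, scipy 1.17.1, pandas 2.3.3). Ratios used a pseudocount of 0.01 and at least 100 summed UMIs, with exact conditional binomial intervals on summed UMIs, Poisson intervals for levels and Clopper-Pearson intervals for shares. Named were the 10 genes, a pathway list (for each group up to 4 genes with the most UMIs, and a few others chosen after their values were seen, such as H2-M3, Nlrc5 and Ifng), Postn, and the 10 genes of most like profile. Members and lists were chosen with earlier results of these data known. Code was tested on simulated data. Alternatives were summed UMIs, other totals, centring, a pseudocount of 0.1, at least 20 UMIs, at least 500 genes per cell, stricter markers (4 of 8, lead 3), no cycling cells, and no deepest 2% of cells. A regulator on the pathway list, and the counts over the regulators that need it, are not reported here.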

Additional observations from a re-analysis of the deposited data

Results flagged for a closer look

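Classical heavy chains differed in direction between neutrophil-like and monocyte-like cells. H2-K1 had a log2 ratio, Postn-DTR over WT, of 0.57 in neutrophil-like cells and -1.14 in monocyte-like cells, and H2-D1 had 0.58 and -0.86. H2-Q7 had 0.62 in plasma-like cells and -2.10 in monocyte-like cells, and Tap1 had 0.51 in NK-like cells and -1.07 in monocyte-like cells. Each of these values is past 0.5 in 1 class and past -0.5 in another, in the same pair of libraries. The higher calls were less stable. In neutrophil-like cells H2-K1 was 0.28 on summed UMIs, and H2-D1 was not called within mature or immature cells. After centring, H2-Q7 in plasma-like cells was 0.49, and the Tap1 call in NK-like cells was lost with stricter markers. The monocyte-like values stayed past -0.5 on summed UMIs and after centring. With 1 library per group, the difference between classes was not tested.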

How the results depend on the processing

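No paired analysis was possible because each group has 1 library. Leaving out a library was not possible for the same reason. Centring on the median of all genes of a class left 3 pairs higher, and moved the median log2 ratio of plasma-like cells to -0.095. That median was -0.29 in cycling plasma-like cells, and the median of neutrophil-like cells was -0.19 in the mature ones. In macrophage-like cells with a Prg4 or Alox15 UMI, a split chosen after seeing the data, the median was -0.28. The splits by precursor genes and by B1 markers were chosen after seeing the data as well. Without cycling cells the Psmb9 share was 37.4% in Postn-DTR plasma-like cells, and in neutrophil-like cells 61.8% (WT) and 60.2% (Postn-DTR). The cause of these shifts was not tested. None of the 34 called pairs changed sign, and over their alternatives 278 values kept the call and 25 lost it. The 278 include 34 values under the setting of at least 20 UMIs. Those could not change, because each called pair already had at least 100 UMIs. Depth limits Tap1, Nlrc5 and H2-Q7 in myeloid classes, where a library had as few as 38 Tap1 UMIs.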
